A study of Cardamine hirsuta with 12 samples.

Results

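On each of the 8 chromosomes of *Cardamine hirsuta*, 1 stretch was chosen in which chromatin immunoprecipitation (ChIP-seq) peaks lay unusually close together. This was so in plants with the tagged transcription factor ChCUC1 and in untagged plants. These stretches ran from 16 to 19 Mb on Chr1, 6 to 9.5 Mb on Chr2, 13.5 to 17 Mb on Chr3, 8 to 10 Mb on Chr4, 9.5 to 13.5 Mb on Chr5, 9.5 to 12.5 Mb on Chr6, 6.5 to 10.5 Mb on Chr7 and 9.5 to 10.5 Mb on Chr8. The stretches were chosen by the density of reproducible peaks in these same data, so density and whatever follows from it are given as description, with no test. A peak was counted in a stretch when its midpoint lay there. By this rule the stretches held 4110 of the 13605 reproducible ChCUC1:V peaks on the chromosomes (15299 with the unplaced scaffolds) and 3793 of the 10221 reproducible peaks of untagged plants (11748 with scaffolds).

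The IP libraries came from transgenic plants carrying ChCUC1 fused to the fluorescent protein Venus (ChCUC1:V) and from untagged wild type of the Oxford strain (Ox), with 3 libraries each. Both genotypes were grown on soil in short days. Seedlings stripped of roots and mature leaves were collected at 14 days after germination, at about 20 g a replicate, and fixed in the cold (4 °C) in formaldehyde at 1% during 20 min. The same antibody against GFP, ab290, was used on both, so the Ox libraries show what was recovered with no tagged protein present. The study uses the name ChCUC1:V for the genomic sequence driven by its own upstream region, and the sources used here do not give how many transgenic lines were sampled. The samples are thus seedling shoots without mature leaves, in which boundary cells are 1 cell type among many. The genotype field names the Oxford strain for every library, so the groups were taken from titles.

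ChCUC1 belongs to the NAC-domain family and acts at organ boundaries, where CUC proteins restrain growth and help to separate organs and leaflets. In crucifers the middle part of a chromosome, around the centromere, is as a rule poor in genes and rich in transposons and other repeats packed as heterochromatin. That is general background. Repeat annotation, centromere positions and genome sequence were not used here, and the stretches are named by position alone.

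The stretches made up 24 Mb, or 13.1% of the 182.581 Mb spanned by peaks on the chromosomes, yet held 30.2% of the ChCUC1:V peaks (Wilson 95% interval 29.4 to 31.0%). They held a larger portion of the Ox peaks, 37.1% (36.2 to 38.1%). Peaks of ChCUC1:V numbered 171.25 per Mb in the stretches and 59.9 per Mb in the rest of the chromosomes, a ratio of 2.86. Peaks of Ox numbered 158 and 40.5 per Mb, a ratio of 3.90. The dense stretches were thus present in plants with no tagged protein, and stood out more there than in ChCUC1:V. Intervals cover counting error only.

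A peak was called shared when it overlapped a reproducible peak of the other genotype by at least 1 bp, and ChCUC1:V-only when it did not. The shared ChCUC1:V peaks were concentrated in the stretches, with 125 per Mb against 31.2 per Mb outside, a ratio of 3.99. The ChCUC1:V-only peaks were spread more evenly, with 46.6 and 28.6 per Mb and a ratio of 1.63. This class is by definition kept off Ox peaks, which covered 28.3% of the bases of the stretches and 7.10% of the rest. The part of this coverage in the lower ratio was not tested. On every one of the 8 chromosomes the ChCUC1:V-only ratio lay below that for all ChCUC1:V peaks, between 1.34 on Chr8 and 1.79 on Chr7, while the ratio for all ChCUC1:V peaks ran from 2.16 on Chr8 to 3.65 on Chr1. The ratio for Ox ran from 2.997 on Chr8 to 5.59 on Chr1. Chr1 therefore had the sharpest stretch in both genotypes and Chr8 the shallowest.

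Seen from the borders, density was already raised before the stretch was reached, though not steadily. Over all 16 borders, ChCUC1:V peaks numbered 68.9 per Mb at 3.5 to 4 Mb outside, 118 per Mb at 0.5 to 1 Mb outside and 103 per Mb in the last 0.5 Mb before the border, a dip that Ox shared. The first 0.5 Mb inside held 157 per Mb and the next 0.5 Mb held 179. Ox peaks numbered 48, 97, 87.5, 142 and 172 per Mb at the same distances. ChCUC1:V-only peaks rose far less, with 31.5, 42.4, 39.25, 44.1 and 45.4 per Mb. They are by definition kept off Ox peaks, and the part of this was not tested. The borders are round positions, and the folds of the peaks next to them ranged alike on both sides. The 16 ChCUC1:V peaks just inside had folds of 1.62 to 3.58 and widths of 526 to 3264 bp (median 1359.5), and 10 of them were shared. The 16 just outside had folds of 1.87 to 3.54 and widths of 727 to 11940 bp (median 2362.5), and 11 were shared.

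**Figure D1:**
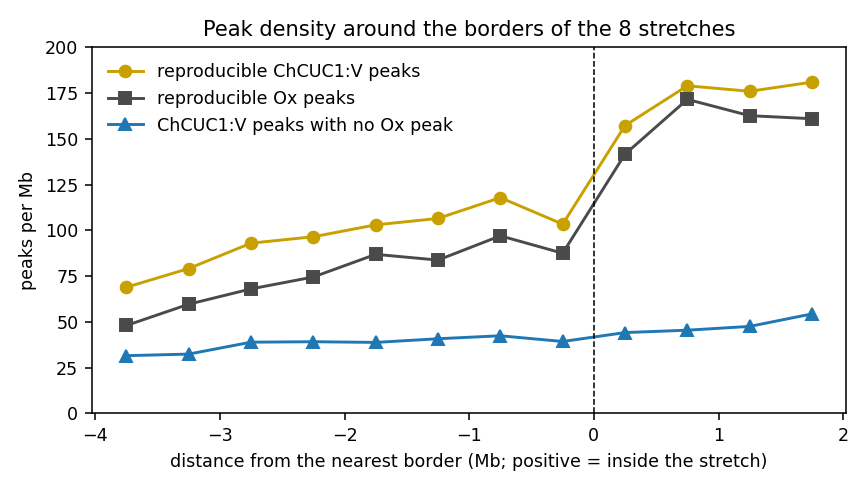
Density of peaks (peaks per Mb, vertical axis) by distance from the nearest border of a stretch (Mb, horizontal axis, positive inside), summed over the 8 stretches. Reproducible ChCUC1:V peaks (circles) and Ox peaks (squares) climbed from 68.9 and 48 per Mb at the far left to 179 and 172 per Mb at 0.5 to 1 Mb inside, while ChCUC1:V peaks with no Ox peak (triangles) went from 31.5 to 45.4 per Mb. The triangles are by definition kept off Ox peaks.

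Within the stretches peaks were packed closely but unevenly. The median gap between neighbouring ChCUC1:V peaks was 1519.5 bp, against 4107 bp in the rest of the chromosomes, and 39.2% of gaps in the stretches were 1 kb or shorter, against 23.4%. The corresponding median gaps for Ox were 1908 and 3582.5 bp. The longest gap in a stretch was 94276 bp for ChCUC1:V peaks and 105615 bp for Ox peaks. Outside, the longest was 352017 bp for ChCUC1:V and 2918005 bp for Ox. The part of this Ox gap in the Ox density and the ChCUC1:V-only counts outside was not tested. Divided into 240 windows of 0.1 Mb, the stretches held 3 to 31 ChCUC1:V peaks a window, with a median of 17, and 1 to 31 Ox peaks, with a median of 16. No window was without a peak of either genotype. Windows rich in ChCUC1:V peaks were rich in Ox peaks (Pearson's r = 0.861, Spearman's rho = 0.848 over the 240 windows). ChCUC1:V-only peaks numbered 0 to 13 a window, with a median of 4, and hardly followed the Ox peaks (r = 0.0849, rho = 0.0844). Neighbouring windows are not independent and share their libraries, and the ChCUC1:V-only class is by definition kept off Ox peaks, so these correlations are descriptions.

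Of the 4110 ChCUC1:V peaks in the stretches, 2991 (72.8%, 71.4 to 74.1%) overlapped a reproducible Ox peak and 1119 (27.2%) did not. Over the 8 chromosomes the shared percentage was 58.4, and outside the stretches it was 52.2 (51.2 to 53.2%). The portion was above that of the rest of the same chromosome in 8 of 8 stretches, by 17.2 percentage points on Chr5 to 27.9 on Chr1. That restates the lower ChCUC1:V-only density ratio of each chromosome. Among the stretches themselves it ran from 68.75% on Chr8 to 76.9% on Chr1. Ox peaks covered 28.3% of the bases of the stretches and 7.10% of the rest. The part of this coverage in the shared percentage was not tested. Demanding more of an overlap lowered both values, to 56.5% in the stretches and 40.8% outside with summits within 0.5 kb, and to 43.7% and 32.4% when both lists were held to an IDR of 0.01.

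Read from the other genotype, the shared percentage in the stretches was close to that of the rest. A reproducible ChCUC1:V peak overlapped 86.7% of the 3793 Ox peaks in the stretches and 84.3% of those outside, where the value over the 8 chromosomes was 85.2 percent. ChCUC1:V peaks covered 35.6% of the bases of the stretches and 10.7% of the rest. The part of this coverage was not tested. The 505 Ox-only peaks of the stretches amounted to 21.0 per Mb, against 6.38 per Mb outside.

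ChCUC1:V peaks were wider in the stretches, with a median of 1625.5 bp (quartiles 989 and 2594.25 bp) against 1272 bp (766 and 2150.5 bp) in the rest. The median was higher in every stretch than on the rest of its chromosome, by 250 bp on Chr4 to 526.5 bp on Chr1. Peaks wider than 2 kb numbered 1520, or 37.0% of the members, against 27.8% outside and 30.6 percent over the 8 chromosomes. For Ox the medians lay closer together, at 1431 and 1338 bp. Shared members were wider (median 1807 bp) than ChCUC1:V-only members (1129 bp). Together the ChCUC1:V peaks covered 35.6% of the stretches and 10.7% of the rest.

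Because shared peaks were the wider ones, sharing was also read within classes of width. Among peaks of up to 800 bp, 49.3% of members and 25.4% of the peaks outside were shared. Between 800 and 1300 bp the values were 63.5 and 42.0%, and between 1300 and 2000 bp they were 74.95 and 60.8%. The distance between stretches and rest then narrowed, to 83.8 and 75.3% between 2000 and 4000 bp and to 94.9 and 91.5% above 4000 bp. The stretches held the higher value in 5 of 5 classes, most clearly among narrow peaks. Classes of width do not even out Ox coverage, which was 28.3% of the bases of the stretches and 7.10% of the rest. The part of that coverage within the classes was not tested.

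**Figure D2:**
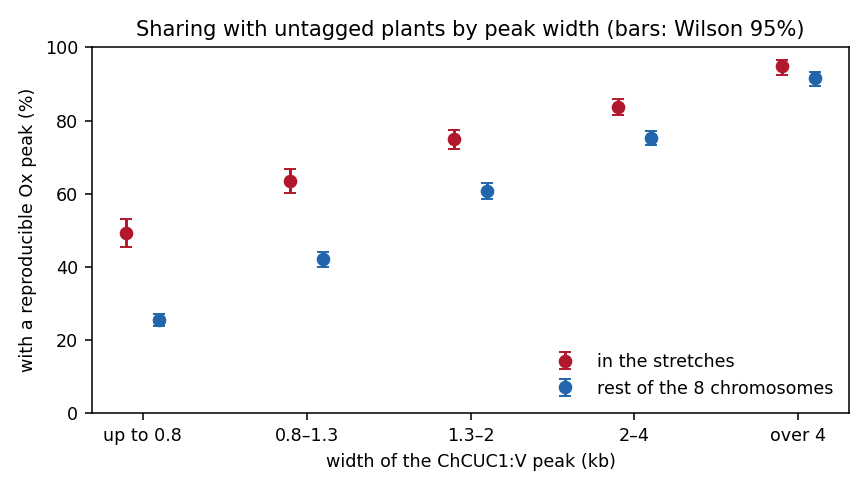
Percentage of reproducible ChCUC1:V peaks that overlapped a reproducible Ox peak (vertical axis) in 5 classes of peak width (kb, horizontal axis), in the stretches and in the rest of the 8 chromosomes, with Wilson 95% intervals as bars. The stretches lay above the rest in each class, by the widest margin at up to 0.8 kb (49.3 against 25.4%) and the narrowest above 4 kb (94.9 against 91.5%). Ox peaks covered 28.3% of the bases of the stretches and 7.10% of the rest.

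The height of the peaks, in contrast to their number, was nearly that of the rest. Fold, the linear ratio by which the summit of a peak in the IP exceeded the pooled control, had a median of 2.18 in the stretches (quartiles 1.99 and 2.41) and 2.11 outside (1.94 and 2.35). Shared peaks had the same median fold in and out of the stretches, 2.2541, and ChCUC1:V-only peaks had 2.03 and 1.998. The stretch median was above that of the rest on 7 of 8 chromosomes, and on Chr8 it was lower, with a difference of -0.0368. The highest score of the list, 1000, was reached by 2407 members (58.6%), against 50.7% outside and 53 percent over the 8 chromosomes. Ox peaks had median folds of 2.40 and 2.36.

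Of the 1000 ChCUC1:V peaks with the highest fold on the chromosomes, 338 (33.8%, Wilson 95% interval 30.9 to 36.8%) lay in a stretch, somewhat more than the 30.2% of all peaks. ChCUC1:V-only peaks were few among them in both places, with 7 of 338 (2.07%) in the stretches and 42 of 662 (6.34%) outside. Among all ChCUC1:V peaks, 27.2% were ChCUC1:V-only in the stretches, 47.8% outside and 41.6% over the 8 chromosomes. High peaks were thus mostly shared with Ox wherever they lay. The part of peak width in this was not tested.

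The member with the highest fold of each stretch was picked to show single regions. Folds of single libraries were not on 1 scale, since the median fold in the stretches was 2.70, 2.09 and 1.95 in ChCUC1:V replicates 1, 2 and 3 and 2.23, 2.84 and 2.47 in Ox replicates 1, 2 and 3. Nor was −log10 p, which depends on depth as well, with medians of 8.14, 8.88 and 8.97 in ChCUC1:V and 8.12, 5.60 and 7.17 in Ox. Both are therefore given, in the order of replicates 1, 2 and 3, without a test. All 8 were shared, reached the highest score and held a relaxed peak (p of 0.01 or less) in all 6 libraries. Chr4:9094649-9098882 had the highest fold in the list among members, 4.27. In single libraries its fold was 4.63, 4.08 and 4.06 for ChCUC1:V and 2.89, 4.16 and 3.08 for Ox. The genotypes overlapped in fold through Ox replicate 2, the library with the highest median fold, and did not overlap in −log10 p, at 25.3, 44.0 and 57.1 for ChCUC1:V and 17.4, 12.4 and 12.97 for Ox. Chr5:13240364-13246358 had folds of 4.31, 3.90 and 3.88 in ChCUC1:V and 2.89, 4.08 and 3.47 in Ox, again with Ox replicate 2 among the ChCUC1:V values. In −log10 p each ChCUC1:V library (24.1, 41.6 and 53.9) was above each Ox library (17.4, 12.1 and 15.9). Chr8:9520585-9529359 had 4.41, 3.60 and 3.80 in ChCUC1:V and 2.96, 3.53 and 2.98 in Ox, so that here each ChCUC1:V library lay above each Ox library, as it did in −log10 p. In the other 5 the genotypes overlapped in both measures. These were Chr1:18141011-18152920 (fold in the list 3.80), Chr2:6537646-6549589 (3.93), Chr3:15451989-15461197 (3.82), Chr6:10100209-10103421 (3.58) and Chr7:8023716-8028086 (3.82). ChCUC1:V libraries thus lay clear of Ox at 1 of 8 regions by fold and at 3 of 8 by −log10 p. All 8 were picked for high fold in the ChCUC1:V list, which favours ChCUC1:V in both counts.

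The 3 widest members were shared as well. Chr7:7955610-7970573 spanned 14964 bp and met 3 Ox peaks, and the Chr2 and Chr1 regions just named spanned 11944 and 11910 bp. In the widest, fold was 3.39, 2.84 and 2.40 for ChCUC1:V (replicates 1 to 3) and 3.54, 3.99 and 2.77 for Ox. Its −log10 p was 14.8, 19.0 and 16.1 for ChCUC1:V and 24.2, 10.7 and 9.59 for Ox, so by either measure the highest single library was untagged.

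Members with no reproducible Ox peak were followed into the single libraries. The 5 with the highest fold were Chr6:11147820-11148788 (3.02), Chr3:14089483-14091047 (2.83), Chr1:16874746-16881648 (2.81), Chr2:8521985-8524126 (2.80) and Chr1:17677156-17677975 (2.78). The annotation of the study places all 5 in intergenic sequence, and the gene nearest to the third is CARHR034720, whose *A. thaliana* counterpart AT1G37130 encodes the nitrate reductase NIA2. Each of the 5 had a relaxed peak in all 6 libraries. At the Chr6 region the folds were 3.29, 2.58 and 2.71 in ChCUC1:V and 2.95, 3.60 and 2.74 in Ox, with the highest in Ox replicate 2. Its −log10 p was 12.9, 15.004 and 21.9 in ChCUC1:V and 15.2, 8.55 and 8.64 in Ox, with the highest in ChCUC1:V replicate 3. The 5 were picked for high fold in ChCUC1:V and for lacking a reproducible Ox peak, which favours higher values in ChCUC1:V. By −log10 p the libraries of the genotypes did not overlap at 3 of the 5 regions, where ChCUC1:V was higher, and by fold they overlapped at all 5. The name ChCUC1:V-only thus says that the reproducible Ox list held no peak there, and not that Ox libraries were without one.

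This held for most of the class. Of the 1119 ChCUC1:V-only members, 812 (72.6%) had a relaxed peak in all 3 Ox libraries, against 47.3% outside the stretches and 52.3 percent over the 8 chromosomes. A relaxed peak in no Ox library was found for 31 (2.77%), against 745 of 4542 (16.4%) outside. Lists of equal length held the 21353 peaks of each library with the smallest p. In these a peak was found at 71.5, 89.3 and 86.9% of the 1119 in ChCUC1:V and at 71.4, 49.6 and 56.7% in Ox. Averaged over libraries, this was 82.5% ± 9.65 and 59.2% ± 11.1 (SD, n = 3 libraries each). Outside, they were 79.0% ± 10.5 and 39.6% ± 7.30. That ChCUC1:V stood above Ox is set by how the class was defined. Support in ChCUC1:V was similar in and out of the stretches, and support in Ox was higher in them.

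Members seen in all 3 ChCUC1:V libraries and in no Ox library at the relaxed threshold numbered 16 of 1119 (1.43%). Outside the stretches there were 444 of 4542 (9.78%), and over the 8 chromosomes 8.13 percent. The part of Ox coverage in this difference was not tested either. The 16 lay on 7 chromosomes, with none on Chr8 and 4 on Chr6. They were narrow, at 534 to 1567 bp with a median of 805.5 bp, and had folds of 1.63 to 2.47 with a median of 1.98. The 3 of these with the highest fold lay in or by genes, and were named after their values were seen. Chr3:15897958-15898516 (fold 2.47) lay in the promoter of CARHR104980, the counterpart of AT2G11810, which encodes a monogalactosyldiacylglycerol synthase of plastid lipid formation in *A. thaliana*. In ChCUC1:V its fold was 2.44, 2.34 and 1.96. Chr7:8054587-8055120 (fold 2.40) lay in an exon of CARHR218290, the counterpart of AT4G12980, with folds of 2.47, 2.21 and 2.03. Chr3:14693988-14695026 (fold 2.25) lay in an exon of CARHR104530, the counterpart of AT3G44340, a Sec24 coat protein of vesicle traffic in *A. thaliana*, with folds of 2.41, 2.01 and 2.12. No Ox library held a peak at any of the 3, which is how they were picked.

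Another 3 members were picked for their annotation, also after values were seen, as peaks in an exon or promoter of a gene that the study lists as bound. The study's evidence of binding includes these same ChIP-seq data, so the listing may not be separate support. Chr4:8129040-8129665 lay in an exon of CARHR118390, named Iqd4 for its IQ domain, a calmodulin-binding motif. Fold there was 2.998, 2.07 and 2.17 in ChCUC1:V, and of the Ox libraries it had a peak in replicate 3 (2.15). Chr5:12670402-12671253 lay in the promoter of CARHR153850, with folds of 2.50, 2.33 and 2.20 in ChCUC1:V and 1.74, 3.003 and 2.14 in Ox. Chr7:9029193-9030786 lay in the promoter of CARHR218640, the counterpart of AT4G13180, a protein with the Rossmann fold that binds NAD(P). It had folds of 2.36, 1.93 and 2.38 in ChCUC1:V and 1.96, 2.77 and 2.87 in Ox. At these 2 promoters the highest fold was in Ox and the highest −log10 p in ChCUC1:V. The −log10 p was 7.45, 12.1 and 13.2 in ChCUC1:V and 4.22, 6.80 and 5.16 in Ox at the Chr5 promoter, with no overlap, and 6.40, 7.85 and 17.5 against 6.52, 5.74 and 9.62 at the Chr7 promoter, with overlap.

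**Figure D3:**
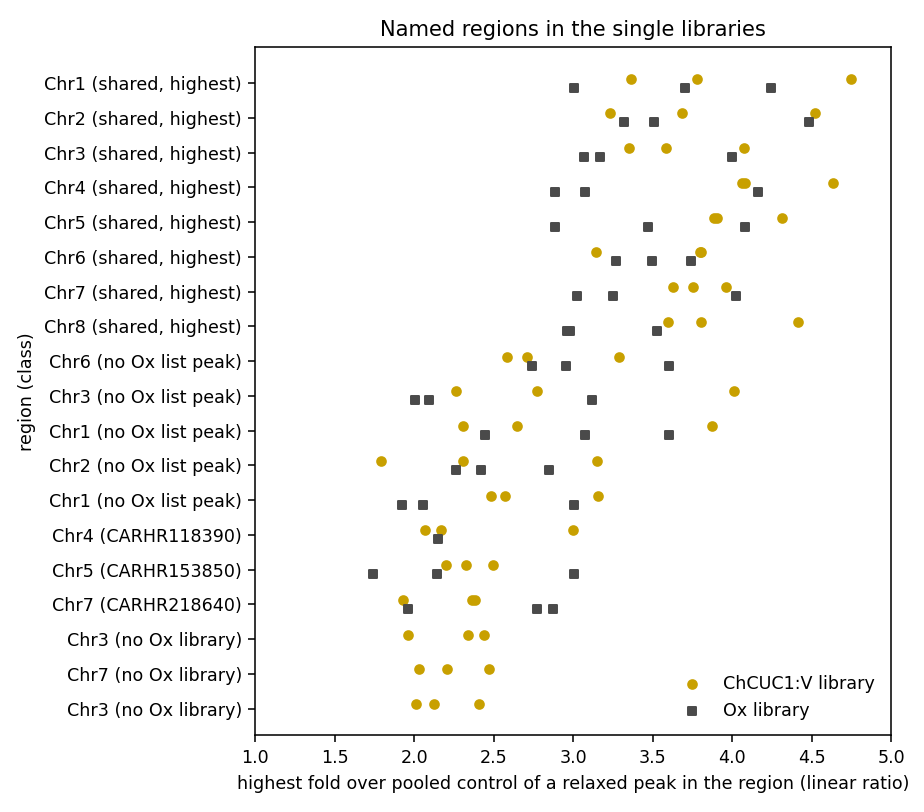
Highest fold of a relaxed peak (linear ratio of IP over pooled control, horizontal axis) in each ChCUC1:V library (circles) and Ox library (squares) at named regions of the stretches, from the highest of each stretch at the top to the 3 regions picked for having no Ox peak at the bottom. A missing symbol means no relaxed peak. Folds differ in scale between libraries (median 1.95 to 2.84 in the stretches). The top group was picked for high fold in the ChCUC1:V list. At the Chr8 region of that group the genotypes did not overlap in fold, and in the other 7 they did.

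The reverse class was looked at in the same way. The 3 Ox-only members with the highest fold were Chr3:15979607-15979958 (3.01), Chr5:10269554-10269940 (3.002) and Chr1:18602464-18609964 (2.94). The Chr1 region had folds between 3.05 and 3.23 in all 6 libraries, with 3.18, 3.05 and 3.22 in ChCUC1:V and 3.12, 3.23 and 3.12 in Ox. At the Chr3 region a relaxed peak was missing from ChCUC1:V replicate 3 and from Ox replicate 1, and at the Chr5 region from ChCUC1:V replicate 2. No region of the 3 was free of peaks in ChCUC1:V.

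How much of each library's peak list fell in the stretches is a form of the density that placed them, and the reproducible lists had already shown the order of the genotypes, so it is described here with no test. In the lists of equal length, 30.5, 30.0 and 26.7% of chromosome peaks lay in the stretches in ChCUC1:V replicates 1, 2 and 3, and 33.1, 34.7 and 34.1% in Ox. Each Ox library was higher than each ChCUC1:V library. The means were 29.1% ± 2.06 and 34.0% ± 0.779 (SD, n = 3 each), a difference of -4.91 percentage points.

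The order was the same on every chromosome taken alone. Differences ran from -7.76 points on Chr1 (30.7% ± 3.41 against 38.4% ± 1.45) to -1.55 on Chr8 (9.81% ± 0.886 against 11.4% ± 0.703), and the libraries of the genotypes did not overlap in 8 of 8 stretches. On Chr8 this rested on a narrow gap between 10.67% in ChCUC1:V replicate 2 and 10.69% in Ox replicate 2. The stretches share their libraries and are not replicates of each other. Measured by the bases under peaks in place of their number, 31.9% ± 1.07 of covered bases were in the stretches in ChCUC1:V and 35.9% ± 0.478 in Ox (difference -3.98 points).

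**Figure D4:**
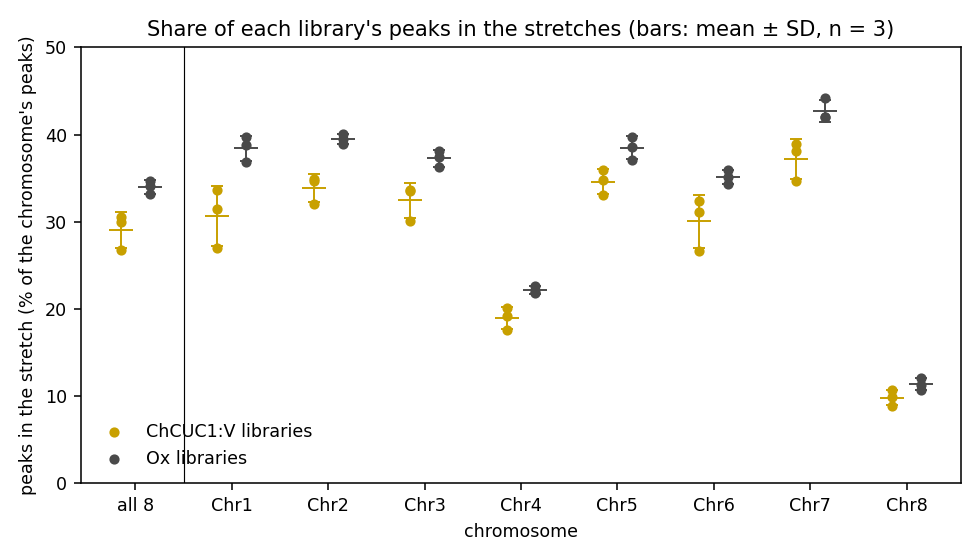
Percentage of each library's chromosome peaks that lay in the stretches (vertical axis), over all 8 chromosomes and by chromosome (horizontal axis), in lists of equal length. Points are libraries and bars are the mean ± SD (n = 3). The ChCUC1:V libraries lay between 26.7 and 30.5% over all chromosomes and the Ox libraries between 33.1 and 34.7%, and Ox was above ChCUC1:V on each chromosome, by the smallest margin on Chr8.

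Sequencing run and list length moved with the libraries. ChCUC1:V replicates 1 and 2 and Ox replicates 2 and 3 were sequenced in 1 run, per the names of the deposited lists, and ChCUC1:V replicate 3 and Ox replicate 1 in a run each. Within the shared run the difference was -4.15 points. ChCUC1:V replicate 3, with the lowest percentage, also had the shortest relaxed list, of 21353 peaks, against 48631 and 25083 in replicates 1 and 2 and 30996, 38180 and 41490 in Ox. Left without it, the difference was -3.73 points. The part of list length in the result was not tested.

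Each list of equal length was divided into 10 parts by −log10 p. In the strongest of these 31.9% ± 2.16 of ChCUC1:V peaks and 37.3% ± 0.809 of Ox peaks lay in the stretches, and in the weakest 22.5% ± 4.64 and 29.3% ± 2.13. The portion was thus higher in the strongest part than in the weakest in both genotypes, but it did not fall steadily, since parts 2, 3 and 4 of ChCUC1:V held 34.4, 32.7 and 32.2%. The genotypes did not overlap in 8 of 10 parts, the exceptions being parts 8 and 9 in order of rank, and the mean was lower in ChCUC1:V in all 10.

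**Figure D5:**
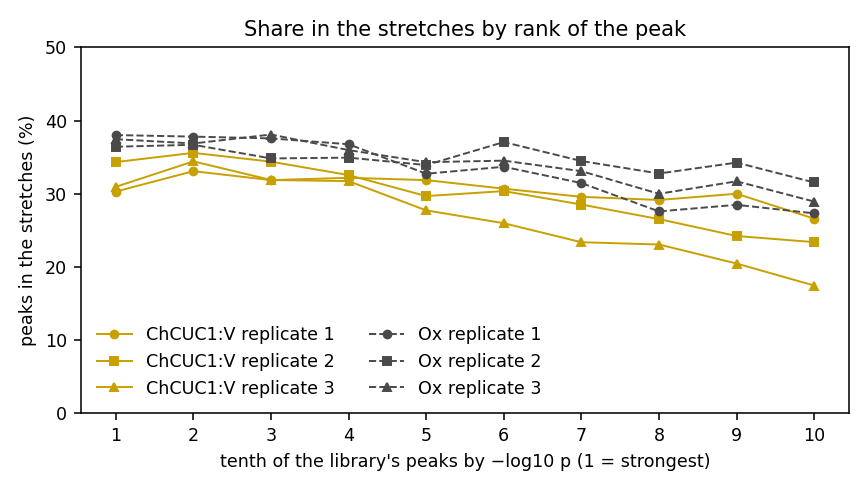
Percentage of peaks in the stretches (vertical axis) by part of each library's list, cut into 10 and ordered from the strongest −log10 p (1) to the weakest (10, horizontal axis), with 1 line a library (solid for ChCUC1:V, dashed for Ox). Means went from 31.9 to 22.5% in ChCUC1:V and from 37.3 to 29.3% in Ox, and the libraries of the genotypes overlapped in parts 8 and 9.

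Coverage, fold and width gave no separation of the genotypes. Peaks covered 19.3, 33.7 and 37.0% of the bases of the stretches in ChCUC1:V replicates 1, 2 and 3, and 33.5, 15.1 and 23.7% in Ox replicates 1, 2 and 3. The libraries overlapped, and the means of 30.0% ± 9.40 and 24.1% ± 9.19 differed by 5.90 points. Covered bases are again a form of density and were not tested. This value moved from 1.40 without Ox replicate 2 and 2.42 without ChCUC1:V replicate 3 to 10.6 without Ox replicate 1 and 11.2 without ChCUC1:V replicate 1. Median peak width in the stretches followed the same order, with 621.5, 1088.5 and 1305 bp in ChCUC1:V and 988, 442 and 685 bp in Ox.

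Within each library, peaks of the stretches were higher and wider than those of the rest. Fold and width did not place the stretches, and the genotypes were compared in them by an exact permutation test over libraries, two-sided, in which 0.1 is the smallest p that 3 against 3 can give, so none could pass 0.05. The labels do not say that replicates were grown separately, although a legend of the study calls them biological, and the p-values speak of the spread among these libraries. The median fold was greater in the stretches by 0.0544, 0.0781 and 0.122 in ChCUC1:V replicates 1, 2 and 3 and by 0.0582, 0.0367 and 0.0552 in Ox replicates 1, 2 and 3, so in 6 of 6 libraries. Genotypes overlapped in this (difference 0.0347, exact permutation test, p = 0.3), and with 10676 peaks a library in place of 21353 the difference turned to -0.00651 (p = 0.7). Without ChCUC1:V replicate 3 it was 0.0162. The median width was greater by 83.5, 214.5 and 327 bp in ChCUC1:V and by 129, 33 and 77 bp in Ox (difference 129 bp, exact permutation test, p = 0.2). It fell to 69.3 bp without ChCUC1:V replicate 3. Again the libraries of the genotypes overlapped.

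To ask where a peak was found in every library of one genotype and none of the other, the 6 lists of equal length were merged into regions. Merging gave 6667 regions in the stretches, with a median width of 1171 bp against 818 bp outside. All 6 libraries had a peak at 2313 (34.7%) of them, against 19.1% outside and 22.9 percent over the 8 chromosomes. Regions seen in all 3 ChCUC1:V libraries and no Ox library numbered 67 (1.00%) in the stretches and 707 (3.47%) of 20352 outside, with 2.86 percent over the 8 chromosomes. The reverse, all 3 Ox libraries and no ChCUC1:V library, was found at 38 regions (0.570%) in the stretches and 84 (0.413%) outside, with 0.452 percent over the 8 chromosomes. ChCUC1:V regions thus outnumbered Ox regions 1.76 to 1 in the stretches and 8.42 to 1 outside. A wider region meets peaks of more libraries more easily, and the part of region width in these counts was not tested. By stretch, ChCUC1:V regions numbered 2 to 15 and Ox regions 2 to 10, with Ox ahead on Chr8 and the counts equal on Chr1 and Chr4.

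These counts depended on the lists. With all relaxed peaks they were 29 for ChCUC1:V and 95 for Ox in the stretches, so the order turned, and 792 and 293 outside, where it did not. Leaving out ChCUC1:V replicate 1 or 3 gave 151 and 110 ChCUC1:V regions in the stretches, leaving out Ox replicate 1, 2 or 3 gave 174, 103 and 110, and leaving out ChCUC1:V replicate 2 gave 95. The Ox regions then numbered 66, 68 and 81 without ChCUC1:V replicates 1, 2 and 3, and 101, 116 and 102 without Ox replicates 1, 2 and 3, so that Ox led in the stretches without Ox replicate 2. Fewer libraries make both conditions easier to meet. Across these settings the ratio of ChCUC1:V to Ox regions was 0.305 to 2.29 in the stretches and 2.70 to 11.3 outside, and in 9 of 9 alternatives it was the lower in the stretches.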

How the data were processed

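The stretches, named regions and alternatives were chosen with earlier results of these data known. Bowtie, MACS2 and bedtools are named in the submitters' processing notes; versions and genome build are not given in the sources used here, so coordinates are those of the deposited lists, counted from 1. Per the deposited names, the authors removed duplicate reads and called peaks of each of the 6 IP libraries over pooled control at a relaxed p of 0.01; no list of an input library (6 in all) was used. Fold, a ratio of IP to control at the summit, and −log10 p are values deposited by the authors. The score that the authors deposited in the 2 reproducible lists is a scaled irreproducible discovery rate (IDR), with 540 at an IDR of 0.05, 830 at 0.01 and 1000 as the highest value. The sources used here do not give how replicates were joined. These 2 lists are named case and control, and case was taken as ChCUC1:V from the aim in the series title and because all 1997 intervals read from the study's table of ChCUC1 peaks have coordinates of the case list. Annotation of named peaks came from that table, of which a part was read, by name and class only.

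Chromosome length was taken as the end of the last peak in any list. The lists hold no read counts, so depth is unknown. Libraries were compared on their 21353 peaks of highest −log10 p, as many as the shortest list held. Libraries were the unit of the exact permutation tests (two-sided) of fold and width; the planned tests of peak share and covered bases, which follow from the density that chose the stretches, were computed but are not used, and peaks were never treated as replicates. Named regions were the highest-fold member of each stretch, the 5 ChCUC1:V-only and 3 Ox-only members of highest fold and the 3 widest; after values were seen, 3 members with peaks in all ChCUC1:V and no Ox libraries (highest fold) and 3 annotated to an exon or promoter of a gene in the study's binding list were added. Python 3.11.15, numpy 2.4.6, pandas 2.3.3, scipy 1.17.1 and matplotlib 3.10.9 were used, and the code was tested on simulated data. Alternatives changed the number of peaks, the borders, the overlap, the IDR, the peak width and the libraries.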

Additional observations from a re-analysis of the deposited data

How the results depend on the processing

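Of 80 alternative values over the 7 results, 1 difference between genotypes reversed, 21 counts or percentages moved (counts by over 1.5 times, percentages beyond their interval) and 58 did neither; for differences that says only that the sign was kept, and their size could change severalfold. The lower share of ChCUC1:V peaks in the stretches stayed negative in all alternatives run, from -5.54 with borders 0.5 Mb outward to -3.38 percentage points with all relaxed peaks, and from -5.64 to -3.73 with 1 library left out. The fold difference reversed to -0.00651 with 10676 peaks a library, and lay between 0.0162 and 0.0499 with 1 library left out. Over the same omissions the width difference was 69.3 to 191 bp, covered bases 1.40 to 11.2 points, ChCUC1:V regions 95 to 174 and Ox regions 66 to 116. Those regions numbered 29 and 95 with all relaxed peaks and 286 and 194 in the libraries with the shared run number. The shared percentage of members moved to 56.5 with summits within 0.5 kb, 66.5 with at least 50% of the peak covered, 43.7 at an IDR of 0.01, 71.0 with borders 0.5 Mb outward, 90.8 against relaxed peaks of all 3 Ox libraries and 64.5 without peaks over 2 kb; the cause was not tested, and the rest of the chromosomes stayed lower in each (32.4 to 73.0%). The 1 Mb stretch of Chr8 drops out when borders move inward. Taking covered bases in place of peaks (-3.98) was chosen after seeing the data. Equal replicate numbers had correlations of deviations between -0.0891 and -0.0229. These gave no sign of pairing but, with 3 libraries a genotype, cannot exclude it. A replicate block leaves the differences at -4.91, 5.90, 0.0347 and 129 by construction. The exact sign-flip test over pairs gave p = 0.5 for fold and for width, where 0.25 is the smallest that 3 pairs allow. Depth is unknown, so a peak missing from a library may be below what that library could show.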
